A study of Mus musculus with 9 samples.

Results

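The genes described are 10 components of the circadian clock, chosen by symbol with values from these same counts already known: Arntl, Clock, Nr1d1, Nr1d2, Per1, Per2, Per3, Cry2, Ciart and Dbp. They are 10 of the 24532 genes in the deposited table, and all 10 were among the 14507 that passed the filter on low counts. Levels, folds and counts of these 10 are therefore a description: no p-value is printed for any of them, and counts past the threshold are set beside the share of all genes with nothing read from them. RNA came from skin keratinocytes of C57BL/6 mice on postnatal days 1, 7 and 14, and each day had 3 libraries. All cells were sorted as viable (propidium iodide-negative) and CD45.2-negative, a gate that removes leukocytes but takes no keratinocyte marker. Count columns headed D0 were taken as day 1, a day that no header names, since the other 2 days have headers, and the day 7 headers are of another style. No treatment or allele separates the groups, and neither the sex of the animals nor the hour of the day at which skin was taken is given in the labels. Since clock transcripts cycle over the day, age and hour of sampling cannot be told apart in any comparison that follows.

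The circadian clock is a transcriptional feedback loop that runs in nearly every cell, keratinocytes included. ARNTL (also called BMAL1) and CLOCK bind together to E-box sequences and activate the Period and Cryptochrome genes, whose proteins return to the nucleus and repress that pair. In a second loop ARNTL and CLOCK activate the nuclear receptors NR1D1 and NR1D2 (REV-ERB alpha and beta), which repress Arntl and are opposed by the ROR receptors, and in skin this clock times epidermal cell division and hair growth.

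The libraries held 50670191 to 62970768 counts each. Levels are library-scaled counts (CPM) with TMM factors, and every log2 fold change is the later day over the earlier one with its standard error (SE), from 1 edgeR fit over all 9 libraries. The 7 keratinocyte markers, Krt5, Krt14, Krt15, Krt1, Krt10, Itga6 and Trp63, were detected at every age and summed to 48635 to 56082 CPM at day 1, 56577 to 58984 CPM at day 7 and 43055 to 45108 CPM at day 14. Markers of other cells moved with age: the 5 melanocyte markers summed to 325 to 356 CPM at day 1, 92.3 to 112 CPM at day 7 and 3.96 to 8.48 CPM at day 14. The 6 fibroblast markers summed to 122 to 225, 17.2 to 61.6 and 16.8 to 37.2 CPM on the same days, and the 5 leukocyte markers to at most 10.8 CPM in any library. Sums of the 4 endothelial and the 4 muscle markers reached at most 1.30 and 0.698 CPM, and those of the 3 erythroid markers were highest at day 7, at 2.43 to 27.7 CPM. The mix of sexes also moved with age. Xist averaged 1352 CPM at day 1, 0 at day 7 and 2534 CPM at day 14. The Y-linked Ddx3y averaged 41.8, 105 and 0 CPM on these days. No day 7 library held Xist and no day 14 library held Ddx3y. At day 14 over day 7, sex and age therefore cannot be told apart. Every day 1 library held both transcripts, so the mix also differed in the comparisons with day 1. The part of these shifts in the clock values was not tested, and in bulk RNA fewer cells of a type and less RNA per cell cannot be told apart.

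The DNA in front of 5 of the 10 genes is shown because it carries the letters to which clock factors are known to bind. Windows of 250 bases before an annotated start were taken from RefSeq (GRCm38.p6), which held 13 windows for 9 of the 10 genes, all but Per2. Both strands were searched for 5 motifs: the E-box CACGTG, its variant CACGTT, the ROR and REV-ERB core TAGGTCA, the D-box TTANGTAA bound by DBP, and the cAMP response element TGACGTCA. Matches are in capitals, and each strand reads towards the gene.
Nr1d1, chr11:98775378-98775627, minus strand: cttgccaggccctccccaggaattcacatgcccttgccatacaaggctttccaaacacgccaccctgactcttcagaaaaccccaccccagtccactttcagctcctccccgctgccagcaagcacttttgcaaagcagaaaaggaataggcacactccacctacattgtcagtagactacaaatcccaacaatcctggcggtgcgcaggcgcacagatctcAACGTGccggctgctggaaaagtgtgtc
Per1, first of its 2 annotated starts, chr11:69098699-69098948, plus strand: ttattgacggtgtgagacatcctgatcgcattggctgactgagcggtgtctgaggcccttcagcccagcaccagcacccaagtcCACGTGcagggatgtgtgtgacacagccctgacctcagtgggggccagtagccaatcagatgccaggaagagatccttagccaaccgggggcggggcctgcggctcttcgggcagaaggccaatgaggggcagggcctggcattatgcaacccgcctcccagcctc
Per3, chr4:151044666-151044915, minus strand: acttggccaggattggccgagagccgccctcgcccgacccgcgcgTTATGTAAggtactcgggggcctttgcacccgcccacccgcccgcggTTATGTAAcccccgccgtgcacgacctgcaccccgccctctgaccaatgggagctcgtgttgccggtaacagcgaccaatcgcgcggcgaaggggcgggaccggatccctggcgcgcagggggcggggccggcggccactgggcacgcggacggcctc
Cry2, chr2:92434070-92434319, minus strand: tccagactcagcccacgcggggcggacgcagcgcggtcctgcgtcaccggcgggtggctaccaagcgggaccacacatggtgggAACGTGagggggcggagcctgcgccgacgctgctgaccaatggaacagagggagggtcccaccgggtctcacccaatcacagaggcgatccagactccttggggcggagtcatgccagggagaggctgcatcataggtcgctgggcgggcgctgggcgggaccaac
Ciart, chr3:95882229-95882478, minus strand: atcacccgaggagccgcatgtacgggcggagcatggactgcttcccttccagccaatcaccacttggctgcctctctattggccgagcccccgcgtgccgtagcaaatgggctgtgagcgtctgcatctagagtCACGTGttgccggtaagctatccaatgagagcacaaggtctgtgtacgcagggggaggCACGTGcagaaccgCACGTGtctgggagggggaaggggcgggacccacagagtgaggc
Ciart held 3 E-boxes, at 116 to 111, 58 to 53 and 44 to 39 bases before the start. Per1 held 1, at 166 to 161 bases. In Nr1d1 and Cry2 the capitals AACGTG are the variant E-box CACGTT read on the opposite strand, at 28 to 23 and 166 to 161 bases before the start. Per3 held 2 D-boxes, at 205 to 198 and 158 to 151 bases. No match to any of the 5 motifs lay in the windows of Arntl, Clock, Nr1d2 and Dbp or of the second Per1 start, which says only that these letters are absent there. Over all 32851 windows of mouse genes, 6.02% held the E-box, 3.85% the variant, 2.23% the ROR core, 2.06% the D-box and 1.55% the cAMP response element, none of which overlaps another in the windows printed.

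**Figure D1:**
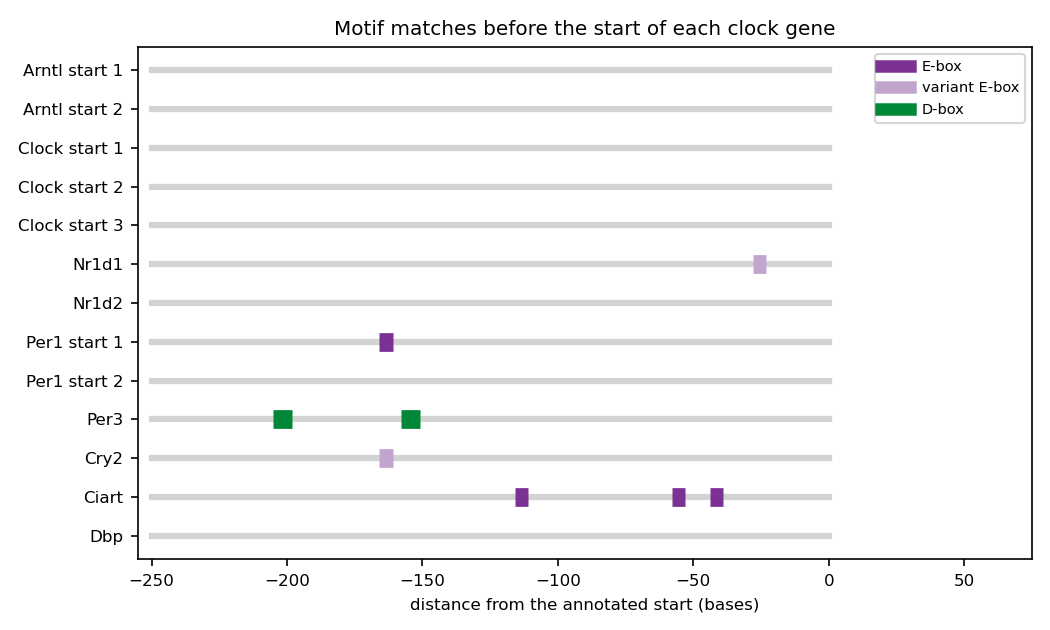
Motif matches in the 250 bases before each annotated start of 9 clock genes, with distance from the start in bases on the x axis and 1 grey line per window. Coloured blocks mark matches on either strand: 3 E-boxes stand before Ciart, 1 before the first start of Per1, 2 D-boxes before Per3, and 1 variant E-box each before Nr1d1 and Cry2.

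The activators were higher at each later age. Arntl (gene 11865, chromosome 7, 113178471 to 113314126) had 21.2, 23.1 and 20.9 CPM in the day 1 libraries, 50.4, 49.5 and 53.5 CPM at day 7, and 82.7, 94.2 and 95.3 CPM at day 14. No day's libraries overlapped those of another day. Its log2 fold change was 1.23 ± 0.06 (SE) at day 7 over day 1, 0.83 ± 0.06 at day 14 over day 7 and 2.06 ± 0.07, or 4.17-fold, at day 14 over day 1. Clock (gene 12753, chromosome 5, 76209868 to 76305603), its dimerisation partner, had 51.9, 45.1 and 48.8 CPM at day 1, 64.5, 66.7 and 65.0 CPM at day 7, and 86.0, 93.1 and 87.1 CPM at day 14. The days were again separate but the steps were smaller than for Arntl, with log2 fold changes of 0.43 ± 0.06, 0.44 ± 0.06 and 0.87 ± 0.06 in the same order of comparisons.

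Nr1d1 (gene 217166, chromosome 11, 98767932 to 98775377), the REV-ERB alpha receptor that represses Arntl, differed most of the 10. It had 9.82, 8.95 and 8.48 CPM at day 1, 42.0, 39.6 and 40.5 CPM at day 7, and 347, 332 and 380.0 CPM at day 14. The 3 days did not overlap, and the highest library of each day was within 1.16 times the lowest. The log2 fold change was 2.16 ± 0.07 at day 7 over day 1, 3.12 ± 0.07 (8.67-fold) at day 14 over day 7 and 5.28 ± 0.07 (38.8-fold) at day 14 over day 1. By log2 fold change at day 14 over day 1 it ranked 104th from the highest among the 14507 genes tested. Its exons share 263 bases, 8.55% of them, with the opposite-strand gene Thra in GENCODE vM21, and the strand setting of the counts is not given in the sources used here. Thra averaged 118, 136 and 122 CPM at days 1, 7 and 14.

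Nr1d2 (gene 353187, chromosome 14, 18204056 to 18239106), the REV-ERB beta receptor, was also higher at each later age, by less. It had 37.1, 30.3 and 33.4 CPM at day 1, 59.3, 65.0 and 70.7 CPM at day 7, and 145, 140.5 and 138 CPM at day 14, again without overlap between days. Its log2 fold changes were 0.95 ± 0.08 at day 7 over day 1, 1.12 ± 0.08 at day 14 over day 7 and 2.07 ± 0.08 at day 14 over day 1.

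Per1 and Per2 did not share the day 7 step with the activators and REV-ERB genes. Per1 (gene 18626, chromosome 11, 69095108 to 69109965), a light- and hormone-inducible Period gene, had 134, 91.7 and 130.1 CPM at day 1, 112, 99.2 and 103 CPM at day 7, and 534, 549 and 570.3 CPM at day 14. Day 7 lay within the range of day 1, while every day 14 library stood above both. The log2 fold change was -0.18 ± 0.13 at day 7 over day 1, 2.40 ± 0.14 (5.27-fold) at day 14 over day 7 and 2.21 ± 0.14 at day 14 over day 1. Library 5 set the low end of day 1, and without it the day 7 over day 1 value was -0.34. Per2 (gene 18627, chromosome 1, 91415977 to 91459351), the Period gene most studied as a core repressor, had 21.7, 17.5 and 21.3 CPM at day 1, 18.3, 17.6 and 19.5 CPM at day 7, and 32.7, 29.0 and 39.3 CPM at day 14. Days 1 and 7 overlapped and day 14 was above both, with log2 fold changes of -0.13 ± 0.11 at day 7 over day 1, 0.87 ± 0.11 at day 14 over day 7 and 0.74 ± 0.11 at day 14 over day 1.

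Per3 differed from the other Period genes in having separate libraries at all 3 ages. This gene (18628, chromosome 4, 150997018 to 151044707), which is not needed for rhythm in mice, had 7.62, 10.7 and 9.57 CPM at day 1, 15.1, 16.6 and 19.3 CPM at day 7, and 32.2, 25.7 and 33.0 CPM at day 14. Its log2 fold changes were 0.87 ± 0.15, 0.83 ± 0.14 and 1.70 ± 0.15 at day 7 over day 1, day 14 over day 7 and day 14 over day 1.

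Among the remaining repressors, most of the difference lay between days 7 and 14. Cry2 (gene 12953, chromosome 2, 92403646 to 92434085), a Cryptochrome that binds and blocks the ARNTL and CLOCK pair, had 47.4, 42.9 and 44.8 CPM at day 1, 62.7, 70.2 and 64.5 CPM at day 7, and 257, 228 and 247 CPM at day 14. No day overlapped another, and the log2 fold change was 0.55 ± 0.06 at day 7 over day 1, 1.89 ± 0.06 at day 14 over day 7 and 2.44 ± 0.06 at day 14 over day 1. An opposite-strand gene, D930015M05Rik, shares 4.67% of the Cry2 exon bases and had 0 counts in every library. Ciart (gene 229599, chromosome 3, 95878500 to 95882257), also called CHRONO, a repressor that binds ARNTL, had 1.35, 1.32 and 1.63 CPM at day 1, 1.25, 1.43 and 0.890 CPM at day 7, and 9.79, 8.79 and 9.53 CPM at day 14. Those levels rest on 82 to 100 counts per library at day 1, 46 to 88 at day 7 and 466 to 490 at day 14. Days 1 and 7 overlapped, at -0.26 ± 0.18 on the log2 scale, and day 14 stood above both, at 2.97 ± 0.18 (7.82-fold) over day 7 and 2.71 ± 0.17 over day 1.

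Dbp (gene 13170, chromosome 7, 45705100 to 45710203) is the output gene of the set, a PAR bZIP transcription factor that passes clock timing on to D-box genes. It had 4.66, 6.18 and 6.10 CPM at day 1, 9.36, 8.61 and 11.5 CPM at day 7, and 30.5, 22.4 and 27.8 CPM at day 14. The days did not overlap, and the log2 fold change was 0.80 ± 0.16 at day 7 over day 1, 1.45 ± 0.15 at day 14 over day 7 and 2.25 ± 0.16 at day 14 over day 1. Its exons share 18.0% of their bases with the opposite-strand Sphk2, which averaged 53.8, 66.7 and 78.3 CPM at days 1, 7 and 14. With the strand setting not known, reads of the shared bases could not be assigned to either gene.

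**Figure D2:**
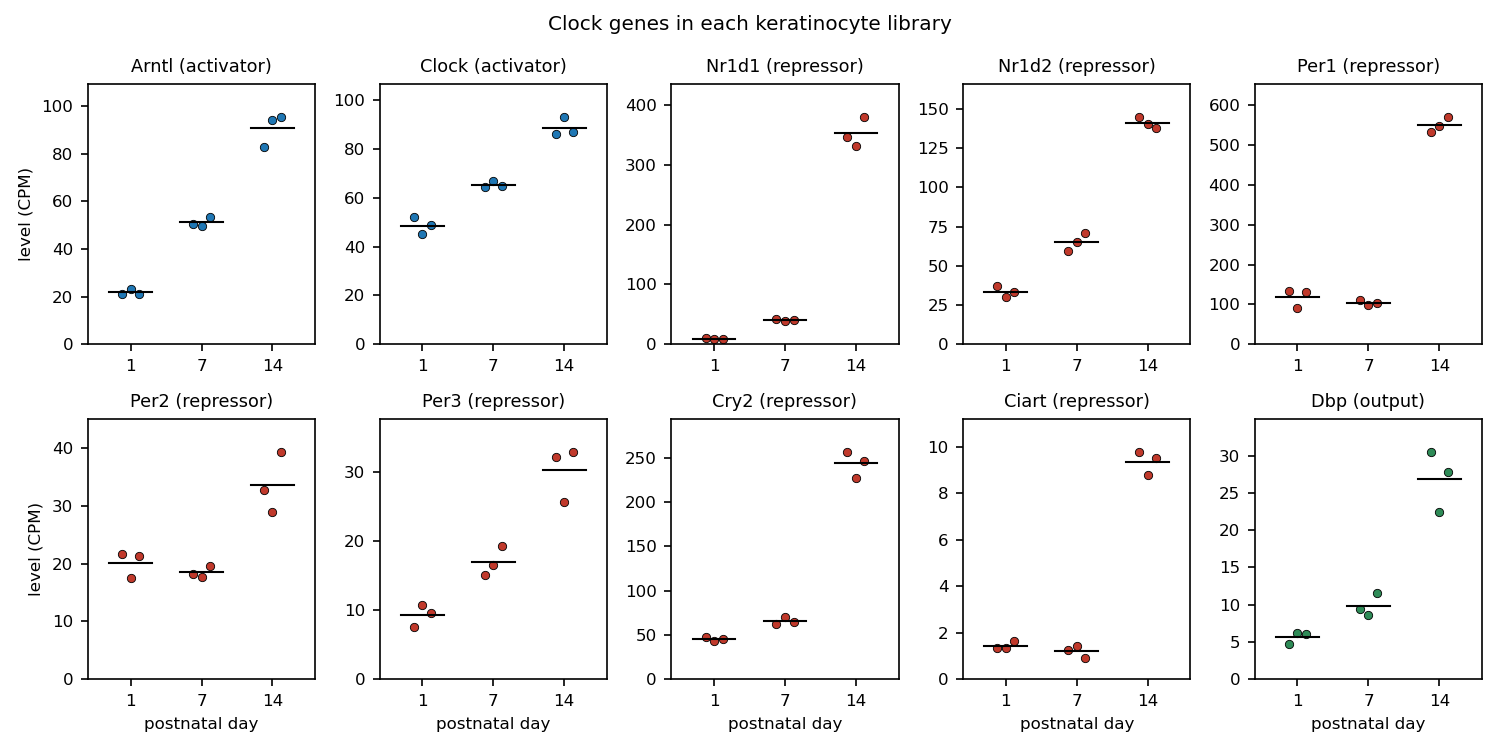
Level of each clock gene in CPM (y axis, from 0, own scale per panel) against postnatal day, with 1 point per library and a line at the mean of 3 libraries, in blue for activators, red for repressors and green for output. All 10 genes have their 3 day 14 libraries above every earlier one, and Per1, Per2 and Ciart overlap between days 1 and 7.

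Across the set, 7 of the 10 genes passed an adjusted p of 0.05 as higher at day 7 over day 1 and 0 as lower, beside 25.5% of all genes tested called higher and 24% called lower. At day 14 over day 7, 10 of 10 were higher and 0 lower, beside 32.5% and 35.1% of all genes. At day 14 over day 1, 10 of 10 were higher and 0 lower, beside 35.5% and 38.4% of all genes. Since the genes were chosen on these counts, nothing is read from those shares. The 3 comparisons also share libraries with each other. The same 7, 10 and 10 genes had no overlap between the groups compared. How many of all genes tested had none was not computed, so nothing is read from these counts either. Median log2 fold changes of the 10 were 0.67 at day 7 over day 1, 1.29 at day 14 over day 7 and 2.14 at day 14 over day 1, where the medians of all genes were -0.00, -0.03 and -0.05.

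The values are also given by role, without a test between roles. The 2 activators had a median log2 fold change of 0.83 at day 7 over day 1 and 0.63 at day 14 over day 7. The 7 repressors had a median of 0.55 at day 7 over day 1, with a range of -0.26 to 2.16, and of 1.89 at day 14 over day 7, with a range of 0.83 to 3.12. Dbp, the 1 output gene, lay between the 2 medians at day 14 over day 7, at 1.45. Genes of one role were not uniform: Arntl had the larger value in the earlier step, Clock had 0.43 and 0.44, and among the repressors Nr1d2 (0.95 and 1.12) and Per3 (0.87 and 0.83) had values of similar size in both. Per2 and Per3 had day 14 over day 7 values, 0.87 and 0.83, next to that of the activator Arntl at 0.83, while Nr1d1, Ciart and Per1 exceeded 2.

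**Figure D3:**
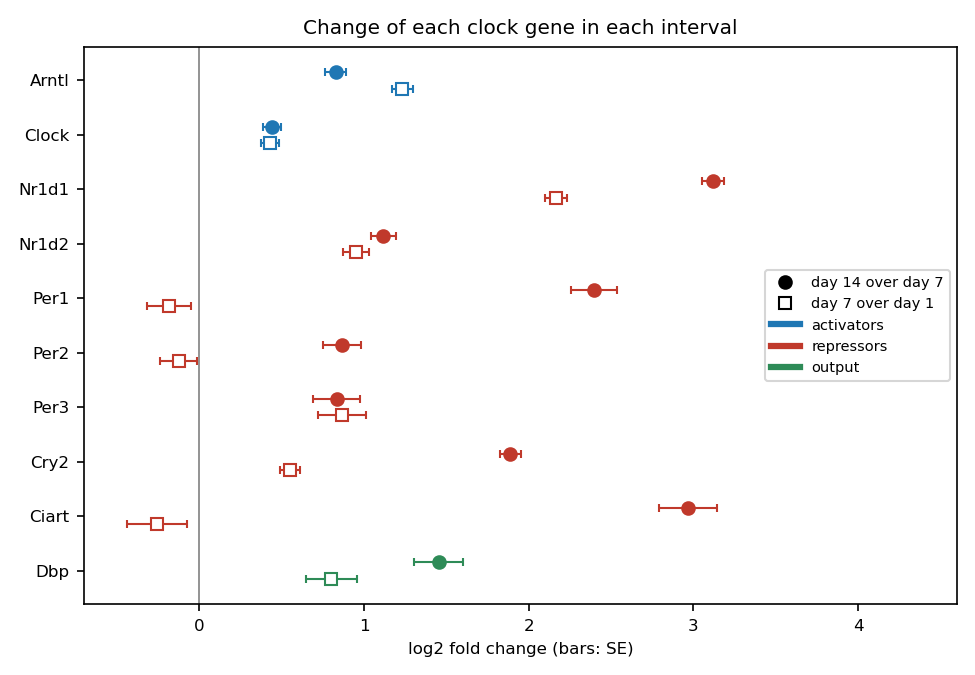
Log2 fold change of each clock gene on the x axis, with bars of 1 SE, for day 14 over day 7 (filled circles) and day 7 over day 1 (open squares), coloured by role. Arntl, at 0.83 and 1.23, is the gene whose earlier step is clearly the larger; Nr1d1, Per1, Per2, Cry2, Ciart and Dbp have the larger step between days 7 and 14.

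Levels between genes are compared per length, as CPM per kilobase of the longest annotated transcript in GENCODE vM21. At day 1 Per1 was highest at 25.4 ± 5.04 CPM per kilobase (SD, n = 3), followed by Cry2 at 11.3 ± 0.572 and Nr1d2 at 7.20 ± 0.728. Arntl at 5.44 and Clock at 4.99 CPM per kilobase overlapped each other, as did Per2, Nr1d1 and Dbp between 3.07 and 3.45. Per3 came next at 1.55 CPM per kilobase, and Ciart was lowest at 0.738.

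At day 7 Per1 led again at 22.4 CPM per kilobase, before Cry2 at 16.6. Nr1d1, Nr1d2 and Arntl followed at 15.0, 13.9 and 12.8 CPM per kilobase, each overlapping the next, then Clock at 6.71 and Dbp at 5.36. Per2 and Per3 overlapped at 3.16 and 2.83 CPM per kilobase, and Ciart stood below at 0.614. At day 14 Nr1d1 at 129.7 ± 9.01 CPM per kilobase and Per1 at 118 ± 3.94 were highest and overlapped. Cry2 followed at 61.3 CPM per kilobase, Nr1d2 at 30.2, Arntl at 22.7, Dbp at 14.7 and Clock at 9.10, each separate from the next, while Per2, Per3 and Ciart overlapped at the bottom between 4.83 and 5.77. Nr1d1 was thus 7th of the 10 at day 1 and 1st at day 14. With exon bases over all transcripts as the length it was 6th and 1st. Other places in the order also depended on the length used. With exon bases, Cry2 was 4th at day 7, at 10.4 CPM per kilobase, below Nr1d1 at 13.2 and Nr1d2. Arntl was 7th at day 1, at 2.89 CPM per kilobase, below Clock at 3.54 and Per2 at 3.44. Per1 stayed highest at days 1 and 7, and at day 14 only Per3 and Ciart changed places.

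Ratios within a library put the repressor and activator arms side by side. Nr1d1 over Arntl, per kilobase, was 0.679, 0.568 and 0.596 in the day 1 libraries, 1.22, 1.17 and 1.11 at day 7, and 6.16, 5.18 and 5.85 at day 14. No day overlapped another. Where such a ratio stands against 1 depends on the lengths used (at day 14 it averaged 5.73 here and 9.54 with exon bases over all transcripts), while its change between days does not. Nr1d1 over Nr1d2 averaged 0.465 ± 0.037 at day 1, 1.08 ± 0.12 at day 7 and 4.30 ± 0.38 at day 14 (SD, n = 3 each).

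The Period genes were dominated by Per1 at every age. Of their summed level per kilobase, Per1 held 83.3% ± 2.54 at day 1, 78.8% ± 1.98 at day 7 and 91.6% ± 0.963 at day 14 (SD, n = 3). Per2 held 11.4%, 11.2% and 4.47% on these days, and Per3 held 5.30% ± 1.83 at day 1, 10.01% ± 1.41 at day 7 and 3.92% ± 0.478 at day 14. Cry2 over Cry1, the other Cryptochrome, averaged 0.678 ± 0.035 at day 1, 0.967 ± 0.059 at day 7 and 2.47 ± 0.14 at day 14. Arntl over Clock averaged 1.10 ± 0.13, 1.91 ± 0.10 and 2.49 ± 0.16 on these days, with no overlap between them.

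**Figure D4:**
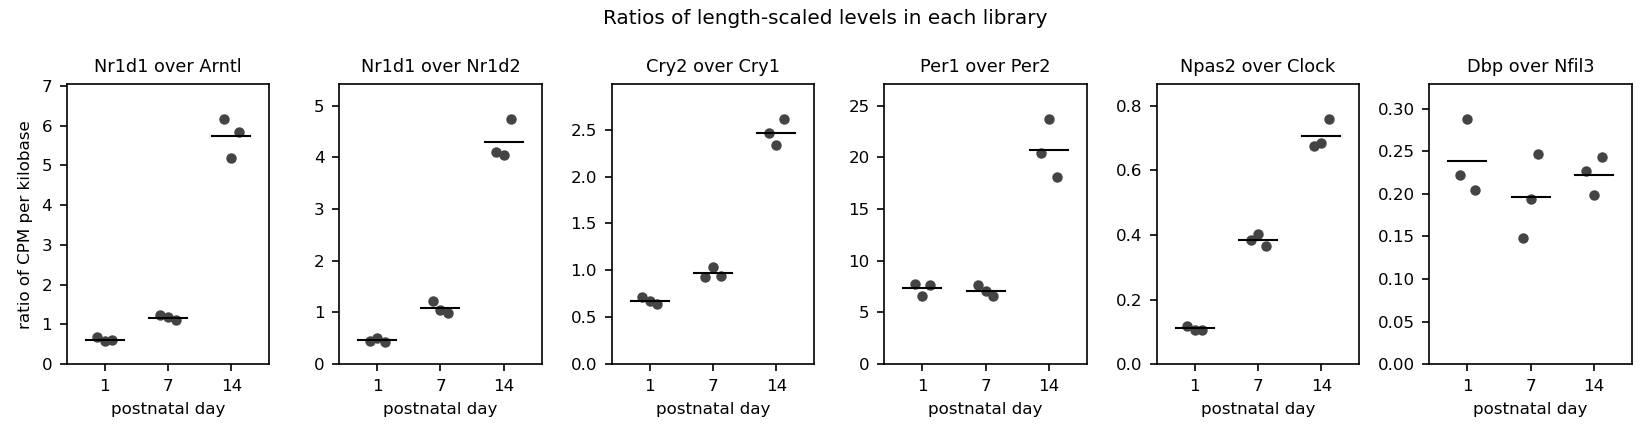
Ratio of the CPM per kilobase of 2 genes in each library (y axis, from 0, own scale per panel) against postnatal day, with a line at the mean of 3 libraries. Nr1d1 over Arntl is 0.568 to 0.679 at day 1, 1.11 to 1.22 at day 7 and 5.18 to 6.16 at day 14, while Dbp over Nfil3 overlaps between all days.

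Within a day, the libraries' deviations from the day mean were not of one sign across the 10 genes. Of the 45 pairs of genes, 26 had a positive Pearson correlation of their deviations from the day mean on log2 CPM over the 9 libraries, with a median r of 0.04 and a range of -0.81 (Clock with Per3) to 0.89 (Per3 with Dbp). These values are descriptions over libraries that share depth and scaling. The largest spread within a day was that of Ciart at day 7, where the highest library was 1.61 times the lowest, then Per1 at day 1, at 1.47 times.

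Genes of the clock outside the chosen set were tested in the same fit: 28 were listed and 27 tested, Rorb having failed the filter. At day 7 over day 1, 11 rose and 2 fell, at day 14 over day 7, 16 rose and 4 fell, and at day 14 over day 1, 18 rose and 5 fell (edgeR quasi-likelihood test, Benjamini-Hochberg adjusted p under 0.05). Of all genes tested, 25.5% were called higher and 24% lower in the first of these comparisons, 32.5% and 35.1% in the second, and 35.5% and 38.4% in the third. Median log2 fold changes of the 27 genes were 0.11, 0.48 and 0.47, beside -0.00, -0.03 and -0.05 over all genes. The list was drawn up with earlier results of these data known.

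Among activators and their partners, Npas2, a paralogue of Clock that also pairs with ARNTL, rose in both steps. It averaged 2.34 ± 0.293 CPM at day 1, 10.9 ± 0.664 CPM at day 7 and 27.2 ± 1.73 CPM at day 14 (SD, n = 3), with a log2 fold change of 2.22 ± 0.10 at day 7 over day 1 (adjusted p = 8.99e-09) and 1.31 ± 0.09 at day 14 over day 7 (adjusted p = 9.78e-08, edgeR). Npas2 over Clock, per kilobase, averaged 0.110 at day 1, 0.385 at day 7 and 0.706 at day 14. Rora, the ROR receptor that activates Arntl against the REV-ERB proteins, averaged 97.6, 196 and 621 CPM and rose by 1.01 ± 0.07 (adjusted p = 1.76e-07) and 1.66 ± 0.07 (adjusted p = 1.39e-09, edgeR) on the log2 scale in the same comparisons. Arntl2, a paralogue of Arntl, rose by 0.39 ± 0.09 at day 7 over day 1 (edgeR adjusted p = 0.00317).

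Other repressors did not move as one. Nfil3, which binds D-boxes and represses where DBP activates, averaged 26.6, 56.7 and 133 CPM at days 1, 7 and 14, with log2 fold changes of 1.09 ± 0.19 at day 7 over day 1 and 1.23 ± 0.19 at day 14 over day 7 (edgeR adjusted p = 0.00249 and 0.000750). Dbp over Nfil3, per kilobase, averaged 0.238 ± 0.044 at day 1, 0.196 ± 0.049 at day 7 and 0.223 ± 0.023 at day 14, and all days overlapped. Cry1 averaged 50.6, 51.8 and 75.3 CPM, a log2 fold change of 0.54 ± 0.05 at day 14 over day 7 (edgeR adjusted p = 1.63e-06), against 1.89 ± 0.06 for Cry2. Bhlhe40 (DEC1), an E-box repressor, rose at day 7 over day 1 by 1.06 ± 0.17 (edgeR adjusted p = 0.00159), and its paralogue Bhlhe41 (DEC2) fell by 1.17 ± 0.18 on the log2 scale to 1.68 CPM at day 7, against 3.77 CPM at day 1 (edgeR adjusted p = 0.000199).

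The PAR bZIP relatives of Dbp rose in both steps. Hlf had 4.56, 3.04 and 3.53 CPM at day 1, 37.5, 41.6 and 53.0 CPM at day 7, and 113, 104 and 109 CPM at day 14. The log2 fold change was 3.56 ± 0.18 at day 7 over day 1 (edgeR adjusted p = 1.16e-06) and 1.30 ± 0.15 at day 14 over day 7 (edgeR adjusted p = 9.2e-05), so that Hlf, like Arntl and Npas2, had its larger value in the earlier step. Tef averaged 40.8, 87.5 and 147 CPM, with 1.10 ± 0.10 and 0.75 ± 0.10 in the 2 steps (edgeR adjusted p = 1.96e-05 and 0.000125).

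Of the 10 kinases, ubiquitin ligase subunits and the deubiquitinase that set the life of clock proteins, 2 rose and 1 fell at day 7 over day 1, and 5 rose and 2 fell at day 14 over day 7 (edgeR adjusted p under 0.05), beside 25.5% of all genes higher and 24% lower in the earlier step and 32.5% and 35.1% in the later one. Usp2, a deubiquitinase known to cycle in many tissues, stood apart with 8.02, 7.51 and 9.13 CPM at day 1, 11.1, 10.9 and 10.4 CPM at day 7, and 60.1, 57.4 and 57.9 CPM at day 14, a log2 fold change of 2.44 ± 0.07 at day 14 over day 7 (edgeR adjusted p = 1.61e-10). Csnk1e, a kinase that marks Period proteins for decay, turned at day 7: it averaged 108 CPM at day 1, 67.4 CPM at day 7 and 105 CPM at day 14, falling by 0.68 ± 0.08 on the log2 scale and then rising by 0.64 ± 0.08 (edgeR adjusted p = 2.83e-05 and 2.33e-05). Scaled by library totals alone, Csnk1e was lower at day 14 than at day 1, at -0.31 on the log2 scale (edgeR adjusted p = 0.00253). Its relative Csnk1d rose by 0.41 ± 0.04 at day 14 over day 7, Csnk2a2 by 0.33 ± 0.06 and Fbxw11 by 0.27 ± 0.05, and Csnk2a1 fell by 0.22 ± 0.04 (edgeR adjusted p = 2.77e-06, 0.000281, 0.000301 and 0.000436). Scaled by library totals alone, Fbxw11 had 0.092 and no longer passed (edgeR adjusted p = 0.115).

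Genes that the clock is known to drive moved in both directions. Klf9, a Krüppel-like factor of the keratinocyte clock, averaged 31.9 ± 6.45 CPM at day 1, 57.8 ± 8.33 CPM at day 7 and 288 ± 14.3 CPM at day 14, with a log2 fold change of 2.32 ± 0.16 at day 14 over day 7 (edgeR adjusted p = 4.9e-06). Wee1, a kinase that holds cells before mitosis, averaged 47.3, 59.9 and 234 CPM and rose by 1.97 ± 0.09 in that step (edgeR adjusted p = 2.5e-08). Klf10 rose by 1.49 ± 0.22 and Nampt, the NAD salvage enzyme, by 0.49 ± 0.05 (edgeR adjusted p = 0.000670 and 2.39e-06). Aqp3, the glycerol and water channel of basal keratinocytes, fell to 227 ± 11.1 CPM at day 14, against 514 ± 46.8 CPM at day 7, a log2 fold change of -1.18 ± 0.07 (edgeR adjusted p = 2.95e-08). The transferrin receptor gene Tfrc fell as well, by 0.55 ± 0.14 (edgeR adjusted p = 0.00871).

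**Figure D5:**
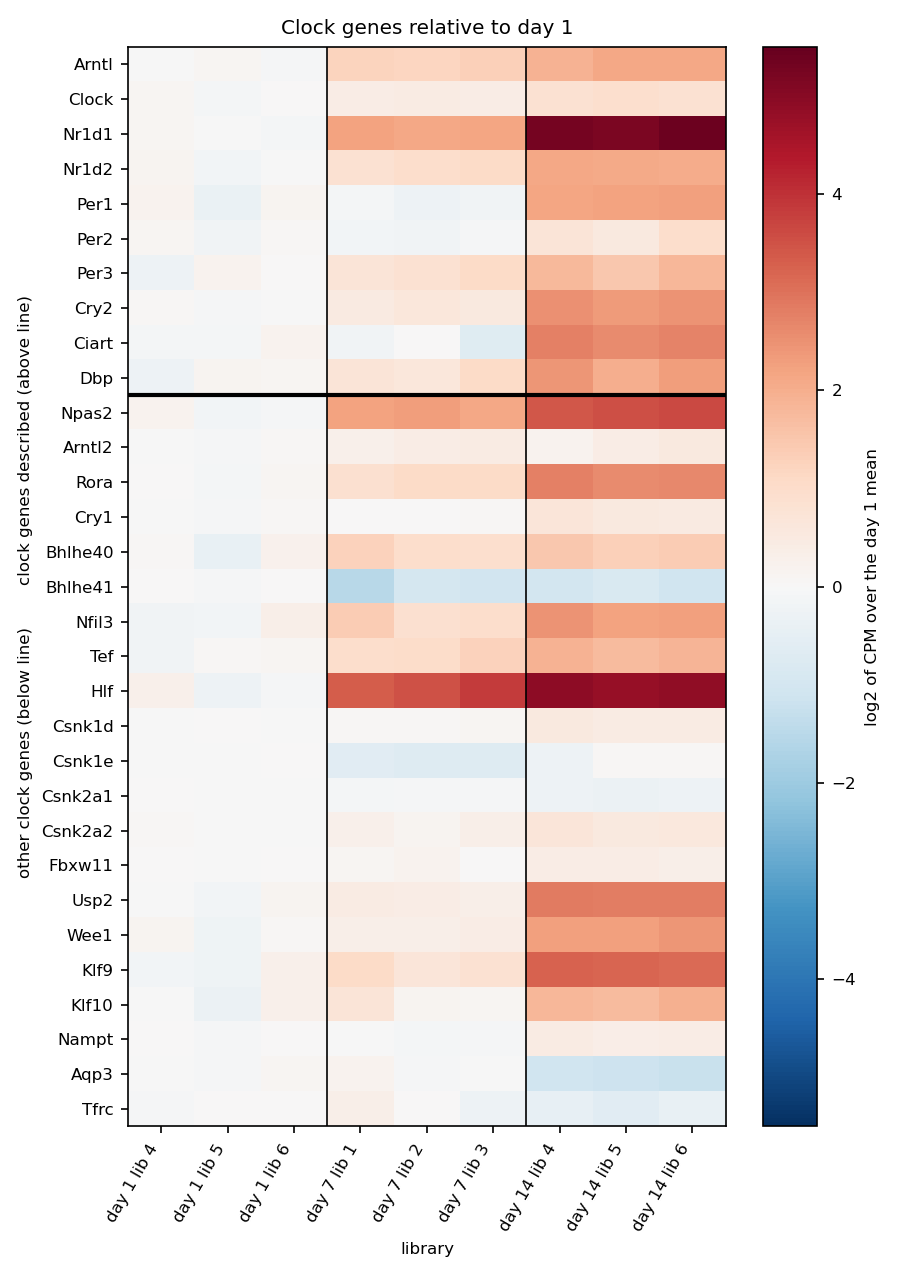
Log2 of CPM over the day 1 mean, as colour, for the 10 clock genes (above the black line) and 21 of the other clock genes that passed the threshold in at least 1 comparison and averaged at least 1 CPM on some day (below it), with 1 column per library. Nr1d1 and Hlf reach the strongest red at day 14, and Bhlhe41 and Aqp3 are blue at day 14.

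Per1 is also induced by glucocorticoids and by immediate early stimuli, so both gene groups are given beside it. Of 8 glucocorticoid-responsive genes, 7 rose and 1 fell at day 7 over day 1, 6 rose and 0 fell at day 14 over day 7, and their summed level was 1016 to 1242 CPM at day 1, 1457 to 1945 CPM at day 7 and 3537 to 3738 CPM at day 14. Of all genes, 25.5% were called higher and 24% lower in the earlier step, and 32.5% and 35.1% in the later one. The 4 of highest level were Dusp1, Errfi1, Sgk1 and Nr3c1, the receptor itself. Dusp1 alone averaged 750, 1069 and 2336 CPM at days 1, 7 and 14, the largest part of the summed level on each day. Errfi1 rose by 1.62 ± 0.12 and Sgk1 by 1.37 ± 0.12 on the log2 scale at day 14 over day 7, and Nr3c1 had -0.10 ± 0.05 (edgeR adjusted p = 4.76e-06, 7.01e-06 and 0.114). Fkbp5 was the 1 that fell, to 4.77 CPM at day 7, against 20.6 CPM at day 1 (edgeR adjusted p = 9.31e-08). It stayed low at day 14, at 5.12 CPM, a log2 fold change of -2.01 ± 0.13 over day 1 (edgeR adjusted p = 2.99e-08). Other genes of the list went the other way. Tsc22d3 averaged 9.19, 17.7 and 129 CPM and Zbtb16 10.3, 16.7 and 117 CPM at days 1, 7 and 14.

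Of 10 immediate early genes, 2 rose at day 7 over day 1 and 9 rose at day 14 over day 7, with none lower in either, beside the same 25.5% and 32.5% of all genes called higher. They summed to 12841 to 15998 CPM at day 1, 13932 to 19077 CPM at day 7 and 32578 to 36308 CPM at day 14. Fosb, a subunit of AP-1, had 1335, 1104 and 1248 CPM at day 1, 1759, 1136 and 915 CPM at day 7, and 7826, 8070 and 9539 CPM at day 14. Its order of days was that of Per1: days 1 and 7 overlapped and day 14 was above both, with 2.74 ± 0.26 on the log2 scale at day 14 over day 7 (edgeR adjusted p = 8.46e-05). Fos rose by 0.91 ± 0.17, Jun by 0.53 ± 0.07 and Atf3 by 1.12 ± 0.17 in that step (edgeR adjusted p = 0.00272, 6.31e-05 and 0.000660). Atf3 also rose at day 7 over day 1, by 0.51 ± 0.16 (edgeR adjusted p = 0.0356). The part of either group in the level of Per1 was not tested.

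The patterns of Arntl and Nr1d1 over the 9 libraries were shared by many genes. The genes ranked were 10093 with a mean of at least 5 CPM. Listed genes, Xist, Y-linked genes and symbols of Gm-number, Rik, LOC or Mir form were left out. Of the 10093, 1314 had a Pearson correlation of log2 CPM above 0.95 with Nr1d1 and 909 with Arntl. Closest to Nr1d1 were Map3k1 (r = 0.999), Fhdc1, Npc1, Unc45a and Csrp1, and closest to Arntl were Tapbp (r = 0.999), Irf5, Mvp, Abcb1b and Ephx1. The sizes differed: Map3k1 averaged 78.6, 130.4 and 256 CPM at days 1, 7 and 14 beside the 9.08, 40.7 and 353 CPM of Nr1d1, while Tapbp averaged 66.1, 125 and 198 CPM beside the 21.7, 51.1 and 90.7 CPM of Arntl. These correlations describe 3 ages of 3 libraries each and carry no test.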

How the data were processed

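RNA of cells sorted from skin was sequenced with a stranded mRNA kit, per the labels' protocols. The submitters' processing notes name build mm10 and the tools HISAT2 2.1.0, StringTie 1.3.4d, Trimmomatic and bcl2fastq 2.20.0. How reads were counted, with what strand option and which annotation, was not given in those sources. The authors deposited whole-number read counts per gene and library, per the file headers. TPM and FPKM, in 18 columns of that table, were not used. Columns were placed in days by header; those reading D0 were taken as day 1, by elimination. Libraries bear the numbers 4 to 6 at days 1 and 14 but 1 to 3 at day 7, in another header style, which cannot be told apart from age.

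Counts were TMM-scaled, filtered with filterByExpr and fitted with edgeR 4.0.16 in R 4.3.3 (robust quasi-likelihood F test, day as a factor), with Benjamini-Hochberg adjustment over all genes tested and a threshold of 0.05. Each SE was derived from the fold change and its F statistic. Each day 1 library held both Xist and Ddx3y, so it probably held RNA of more than 1 animal. Whether libraries are separate animals or separate pools is unknown, so p-values measure only the spread between libraries, which may be technical. Levels between genes, planned in TPM, were computed from CPM and the longest GENCODE vM21 transcript. The fit was also run on simulated counts as a check of the code. The outcome is not reported here, and nothing about these data is read from it.

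The 10 members and all gene lists were chosen with earlier results of these data known. Other clock genes could be named if past the threshold in at least 1 comparison with a mean of at least 1 CPM on some day. Of the glucocorticoid and immediate early lists, the 4 of largest mean level were named. Fkbp5, Tsc22d3 and Zbtb16 were named as well, after their values were seen. Some other clock genes are counted but not reported here by name. Genes nearest to Nr1d1 and Arntl had to lie outside all lists and average at least 5 CPM. Xist, Y-linked genes and symbols of Gm-number, Rik, LOC or Mir form were not ranked. Alternatives were RLE factors, library totals, no filter, DESeq2 1.42.0, limma-voom (limma 3.58.1), 2 days at a time, a test against a fold of 1.5, each library left out, a replicate block and, added after seeing the data, another transcript length.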

Additional observations from a re-analysis of the deposited data

How the results depend on the processing

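Counts of the 10 clock genes past the threshold stayed at 10 at day 14 over day 7 and over day 1 under every alternative except the test against a fold of 1.5, which left 8 and 9, and at 7 or 8 at day 7 over day 1 except under that test, which left 3. It also left 7 of 13, 9 of 20 and 13 of 23 other clock genes at day 7 over day 1, day 14 over day 7 and day 14 over day 1; a fold floor calls fewer genes by construction. The count of 8 came without day 1 library 5, with Per1 added as lower (-0.34). Scaling by library totals alone moved the median log2 fold change of all genes by -0.10, -0.17 and -0.27 and the share of calls that were higher to 35.7%, 34.9% and 31.9%, against 51.5%, 48.1% and 48.1% with TMM; 7, 10 and 10 clock genes were still higher. With totals, Cry1 (-0.064), Csnk1d (-0.035), Aqp3 (-0.068) and Tfrc (-0.051) turned sign at day 7 over day 1, and Fbxw11 (0.092) no longer passed at day 14 over day 7. Csnk1e (-0.31) passed as lower at day 14 over day 1 with totals but not with TMM. Arntl2 at day 14 over day 7 turned with RLE factors (0.021) and DESeq2 (0.015). Leaving out 1 library turned Aqp3 (-0.046 to 0.089) and Tfrc (-0.11 to 0.19) at day 7 over day 1, Arntl2 (-0.0957 to 0.069) at day 14 over day 7 and Csnk1e (-0.105 to 0.058) at day 14 over day 1. None of those that turned sign passed the threshold with all libraries and TMM, and the cause was not tested. Header numbers 4 to 6 are shared by days 1 and 14. Same-numbered libraries correlated at -0.03, 0.05 and 0.15 in their deviations, and different-numbered ones at -0.13 to 0.08. With 3 libraries per day, these values cannot decide whether the numbers pair the libraries. A replicate block on the header numbers left 10 clock genes and 22 of 23 other clock genes called, as did a fit of only days 1 and 14. With exon bases over all transcripts as length, an alternative chosen after seeing the data, Nr1d1 over Arntl averaged 9.54 at day 14, against 5.73; TPM against FPKM was not run. Of the 10 clock genes, depth limits mainly Ciart, at 46 to 100 counts per library before day 14. The other clock genes counted as lower at day 14 include a ubiquitin ligase subunit near the floor. It averaged 0.514, 0.320 and 0.098 CPM at days 1, 7 and 14.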
